A study of Mus musculus with 8 samples.

Results

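Macrophages are the resident immune cells of the testis interstitium, where they lie among Leydig cells and around the seminiferous tubules. They depend on signalling through the CSF1 receptor, take up and digest dying cells in their lysosomes, secrete the C1q that starts the classical complement pathway, and present antigen on MHC class II. The macrophage genes described here were Csf1r, Cd68, Lyz2, C1qa, C1qb, C1qc, Cd74, Fcer1g and Tyrobp, chosen by symbol, and every probe set paired with one of them on the array was taken. All 9 genes had a probe set, among 8251 genes with a probe set of their own on the array. They were measured by 15 of the 12422 probe sets that are not controls, of which 14 name 1 gene and 1 is shared by Lyz1 and Lyz2. Of these, 8 probe sets of 6 genes (Csf1r, Cd68, C1qa, C1qb, C1qc and Cd74) were bright enough to be tested, among 7282 tested in all.

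Mouse testis total RNA was hybridised to 8 Affymetrix MG_U74Av2 arrays, 2 for each of 4 genotypes, to examine loss of Ku86 and of telomerase. The arrays labelled double knockout came from Ku86(-/-) mice of the third generation without Terc, written Ku86(-/-);G3-Terc(-/-). The arrays labelled Terc knockout were Ku86(+/+);G3-Terc(-/-), those labelled Ku86 knockout were Ku86(-/-);Terc(+/+), and wild type arrays were Ku86(+/+);Terc(+/+). Xrcc5 encodes Ku86, which holds broken DNA ends for non-homologous end joining, and Terc is the RNA template of telomerase. Neither age nor strain is given in the labels. The labels name testis as the source, but the records of the scanner speak of germ cells. Those records also state that each array received 15 micrograms of cRNA and that 3 mice were pooled in double knockout replicate 1. They mark wild type replicate 1 as a repeat. Double knockout replicate 1 and Ku86 knockout replicate 1 were scanned on the first of 3 scan days, wild type replicate 1 alone on the third, and the other 5 arrays on the second, with the chip lot changing alongside. Median signal per array, in arbitrary intensity units, was lowest on wild type replicate 1 at 49.7 and highest on Terc knockout replicate 2 at 73.2. The number of arrays limits the precision of every value below.

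Xrcc5 signal went against the Ku86 labels. Its probe set 96063_at read 259 and 423.3 on the arrays labelled double knockout, 71.2 and 11.1 on those labelled Terc knockout, 419.9 and 458.8 on those labelled Ku86 knockout, and 46.3 and 75.6 on wild type. All 4 arrays labelled without Ku86 were above all 4 labelled with it. Where its probes lie in the transcript is unknown here, and probes beyond the deletion would check nothing, so every direction given below rests on the labels.

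The tissue label was set against 24 other macrophage and monocyte genes on 32 probe sets, of which 13 probe sets of 11 genes were bright enough to be tested and 5 probe sets stayed at or under the floor on every array. The floor of 11.8 is the signal to which lower values were raised before taking log2. Among the brighter ones, Cd14, the co-receptor for lipopolysaccharide, ran between 250.9 and 324.4, Cx3cr1, the fractalkine receptor, between 130.9 and 203.4, and Mpeg1, which encodes a perforin-like protein, between 71.3 and 218.1 on 1 of its 2 probe sets. The leukocyte genes Laptm5 and Cd52 also passed, with Cd52 between 35.2 and 105.3. Others were at or near the floor. Ptprc, the pan-leukocyte antigen CD45, stayed between 0.7 and 14.4 on its 3 probe sets, and Cd53, a leukocyte tetraspanin, between 0.9 and 4.8. Adgre1, the macrophage antigen F4/80, ran between 1.6 and 23.8, and Itgam, the integrin CD11b, between 3.1 and 17.4. Signals of probe sets cannot be compared with each other, so these values do not measure how many macrophages the samples held. In whole tissue, fewer cells of a type and less RNA per cell cannot be told apart.

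The genes C1qa, C1qb and C1qc encode the A, B and C chains that assemble into C1q, and they are neighbours on mouse chromosome 4 in the order C1qb, C1qc, C1qa, with 0 other genes between them. Their probe sets did not all share a pattern over the arrays. Pearson r ran from -0.53 for C1qa with C1qc to 0.66 for C1qa with C1qb 96020_at. The promoters of C1qb and C1qc are shown for reading beside their signals, and their part in the signals was not tested. Each is the 250 bases before the RefSeq gene start (GRCm38.p6), with the purine-rich core GAGGAA, the sequence favoured by the macrophage lineage factor PU.1 (encoded by Spi1), in capitals where it occurs on either strand.
C1qb (chr4:136886201-136886450, minus strand): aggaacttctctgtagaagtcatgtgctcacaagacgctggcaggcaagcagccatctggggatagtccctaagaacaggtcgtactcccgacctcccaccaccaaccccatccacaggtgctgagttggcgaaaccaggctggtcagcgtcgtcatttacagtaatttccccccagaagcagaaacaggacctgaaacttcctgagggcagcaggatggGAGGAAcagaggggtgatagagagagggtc
C1qc (chr4:136892915-136893164, minus strand): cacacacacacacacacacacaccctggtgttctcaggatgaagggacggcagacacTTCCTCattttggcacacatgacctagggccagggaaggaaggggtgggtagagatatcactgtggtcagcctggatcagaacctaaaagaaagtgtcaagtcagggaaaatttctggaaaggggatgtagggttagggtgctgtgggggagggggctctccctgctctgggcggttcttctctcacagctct
The C1qb window held 1 such core, whose first base lay 30 bases before the gene start. The C1qc window held 1 on the opposite strand, printed as TTCCTC, at 193 bases. Cd68 also had 1 core, at 225 bases, while the windows of Lyz2 and Fcer1g held 0. RefSeq promoters were examined for 5 of the 9 genes, and those of Csf1r, C1qa, Cd74 and Tyrobp were left out of this count. Of those 5, 3 held the core, against 23.25% of 32851 mouse promoters of the same length. The members counted were not the full set, so these shares are not like for like, and their difference was not tested. A match of these letters is a description, not a binding site.

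C1qb had the member probe set with the widest spread, and its pair of probe sets did not show the same pattern. On probe set 162276_i_at, signal was 114 and 115.5 on the arrays labelled double knockout, 61.1 and 126.3 on those labelled Terc knockout, 100 and 113.1 on those labelled Ku86 knockout, and 19.4 and 48.7 on wild type. All 6 arrays labelled knockout were above both wild type arrays, a pattern noticed after the values were seen, which 555 of the 7282 tested probe sets (7.62%) also had. Its total range of 2.70 on the log2 scale was wider than that of 97.6% of tested probe sets. Affymetrix names ending in _i_at mark sets that hold fewer probes than usual.

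On the other C1qb probe set, 96020_at, signal was 130.4 and 131.8 on arrays labelled double knockout, 127.1 and 135.2 on arrays labelled Terc knockout, 73.7 and 98.7 on arrays labelled Ku86 knockout, and 116.9 and 132.9 on wild type. Here the arrays labelled Ku86 knockout were the lowest, below every other array. Across the 8 arrays the log2 signals of the 2 C1qb probe sets had a Pearson r of -0.11 and a Spearman rho of 0.40, given as a description of arrays that share genotypes, scan days and lots.

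**Figure D1:**
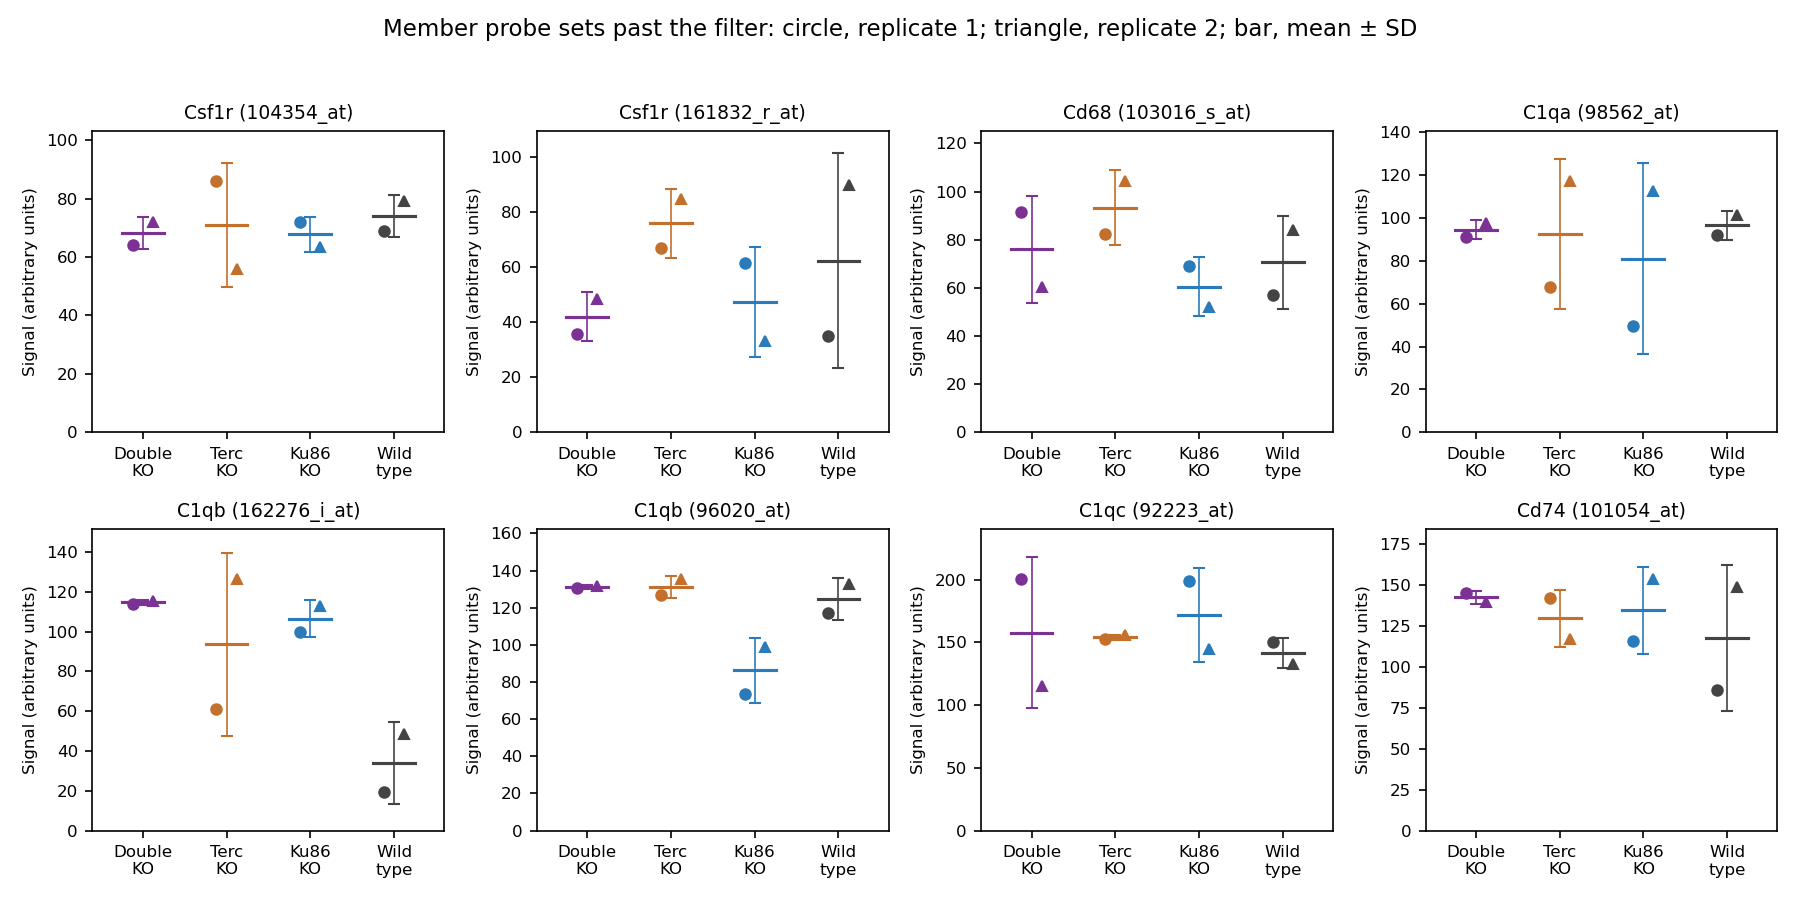
Signal of the 8 tested member probe sets on a linear axis from 0 (arbitrary units), with the 4 genotype labels along each panel, a circle for replicate 1, a triangle for replicate 2, and a bar at the mean ± SD (n = 2). For C1qb 162276_i_at both wild type arrays (19.4 and 48.7) lie under all 6 arrays labelled knockout, and for C1qb 96020_at both arrays labelled Ku86 knockout (73.7 and 98.7) lie lowest.

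C1qa, on probe set 98562_at, read 91.3 and 97.7 on arrays labelled double knockout, 67.7 and 117.1 on those labelled Terc knockout, 49.4 and 112.7 on those labelled Ku86 knockout, and 91.8 and 101.4 on wild type. The groups overlapped throughout, and the 2 arrays labelled Ku86 knockout differed more from each other than any group means did. C1qc, on probe set 92223_at, read 200.1 and 115.4 on arrays labelled double knockout, 152.4 and 155.5 on those labelled Terc knockout, 198.5 and 145 on those labelled Ku86 knockout, and 149.9 and 133.1 on wild type. The lowest and the highest C1qc signals were both from the arrays labelled double knockout. Both arrays labelled Terc knockout were above both wild type arrays for C1qc, with the nearest pair at 152.4 and 149.9.

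Csf1r encodes the receptor for CSF1 and IL-34, on which macrophage survival depends, and Cd68 encodes a lysosomal glycoprotein of phagocytes. Csf1r signal on probe set 104354_at was 64.3 and 72 on arrays labelled double knockout, 86 and 56 on those labelled Terc knockout, 72.1 and 63.4 on those labelled Ku86 knockout, and 69 and 79.2 on wild type. The highest and the lowest of these were the 2 arrays labelled Terc knockout, and the groups overlapped. Its other probe set, 161832_r_at, read 35.7 and 48.2 on arrays labelled double knockout, 67 and 84.7 on those labelled Terc knockout, 61.3 and 33 on those labelled Ku86 knockout, and 34.8 and 89.8 on wild type. The wild type arrays spanned all the arrays labelled double knockout and Terc knockout, and the 2 Csf1r probe sets had an r of 0.26 and a rho of 0.43 over the 8 arrays. Cd68 signal on probe set 103016_s_at was 91.6 and 60.3 on arrays labelled double knockout, 82.4 and 104.3 on those labelled Terc knockout, 69.2 and 51.9 on those labelled Ku86 knockout, and 57 and 84.1 on wild type. These groups overlapped with wild type as well.

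Cd74 encodes the invariant chain, which escorts MHC class II molecules to the compartment where they load peptide, and is also made by B cells and dendritic cells. Its probe set 101054_at read 145.4 and 139.6 on arrays labelled double knockout, 142.2 and 117.4 on those labelled Terc knockout, 115.8 and 153.5 on those labelled Ku86 knockout, and 86.2 and 149.1 on wild type. The lowest array was wild type replicate 1 and the other wild type array was among the highest, so all groups overlapped.

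Limma found no member probe set that differed between arrays labelled double knockout and wild type at an adjusted p under 0.05, against 0.0275% (2) of all tested probe sets. At an unadjusted p under 0.05 there was 1 member of 8, against 8.6% of all tested. That probe set was C1qb 162276_i_at, with 115 ± 1.06 on arrays labelled double knockout and 34.0 ± 20.7 on wild type (SD, n = 2 each). Its log2 difference was 1.90 ± 0.49 (SE), a 3.73-fold ratio with a 95% interval of 1.78 to 7.84 (limma adjusted p = 0.337). Its wild type mean lay under the brightness filter of 38.1, so it was tested only because the arrays labelled knockout were brighter. Without the filter its unadjusted p was 0.021, against 0.0023 with it (limma). Groups did not overlap for 1 of 8 members, against 36.4% of all tested. The members' median log2 difference was 0.088, beside 0.075 over all tested probe sets, with 5 of 8 above 0 on the deposited scaling, and this median turned to -0.129 after quantile normalization (-0.022 over all) and to -0.179 after median centring (-0.191 over all). C1qb 96020_at differed by 0.07, with a 95% interval of -0.57 to 0.72, and lay below 0 under both of those scalings. The intervals of the remaining members were wide: the ratio for Csf1r 104354_at was 0.920, with an interval of 0.513 to 1.65, and the ratio for Cd74 was 1.26, with an interval of 0.762 to 2.07.

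Arrays labelled Terc knockout against wild type gave 0 called members, against 0.0275% of all tested (limma). Again 1 of 8 had an unadjusted p under 0.05, against 7.06% of all tested, and it was C1qb 162276_i_at. This probe set averaged 93.7 ± 46.1 on arrays labelled Terc knockout and 34.0 ± 20.7 on wild type (SD, n = 2 each), a log2 difference of 1.51 ± 0.49 (SE, limma adjusted p = 0.672). The arrays did not overlap for 2 of 8 members, C1qb 162276_i_at and C1qc, against 37.7% of all tested. For C1qc the log2 difference was 0.12, with an interval of -0.57 to 0.82, and it lay below 0 after quantile normalization and after median centring. The members' median was 0.156, beside 0.107 over all tested probe sets, with 6 of 8 above 0, and it turned to -0.038 after quantile normalization (0.003 over all) and to -0.177 after median centring (-0.226 over all). Cd68 differed by 0.42, with an interval of -0.46 to 1.30.

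For arrays labelled Ku86 knockout against wild type, limma likewise called 0 members, against 0.0412% of all tested, and 1 of 8 had an unadjusted p under 0.05, against 5.9%. C1qb 162276_i_at averaged 107 ± 9.26 on arrays labelled Ku86 knockout and 34.0 ± 20.7 on wild type (SD, n = 2 each), a log2 difference of 1.79 ± 0.49 (SE, limma adjusted p = 0.651). C1qb 96020_at lay on the other side, at 86.2 ± 17.7 on arrays labelled Ku86 knockout and 124.9 ± 11.3 on wild type (SD, n = 2 each), a log2 difference of -0.55 with an interval of -1.19 to 0.10 (limma adjusted p = 0.802). These 2 probe sets of the same gene were the 2 of 8 members without overlap, against 38.1% of all tested. The members' median was -0.169, beside 0.095 over all tested probe sets, with 3 of 8 above 0. It was -0.379 after quantile normalization (0.010 over all) and -0.402 after median centring (-0.138 over all). These 3 comparisons share the wild type arrays and are therefore not independent of each other.

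**Figure D2:**
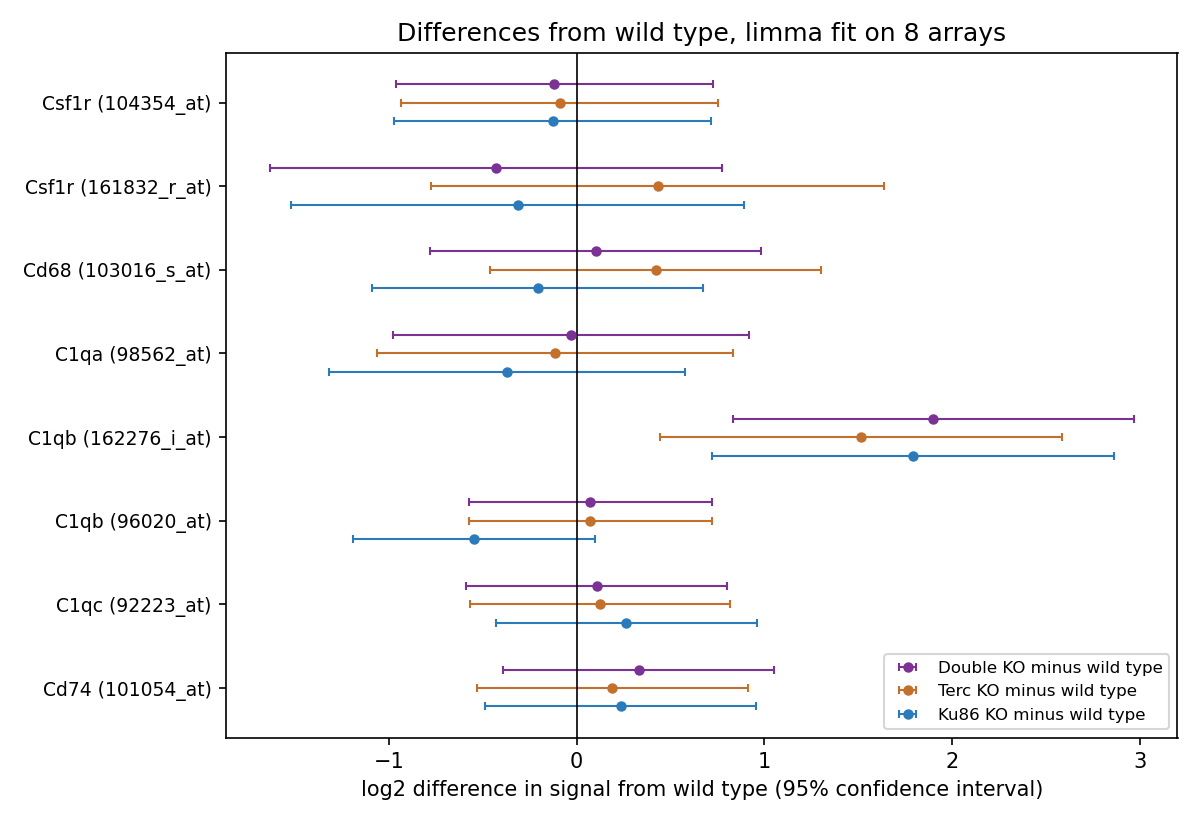
Log2 difference in signal from wild type (horizontal axis) for each tested member probe set (rows), with the arrays labelled double knockout, Terc knockout and Ku86 knockout as 3 points in each row and bars for 95% confidence intervals of the limma fit. The intervals of C1qb 162276_i_at lie above 0 in all 3 comparisons (1.90, 1.51 and 1.79), without an adjusted p under 0.05 and not with scan day as a block, and every other interval includes 0.

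Wild type replicate 1 carried much of the C1qb 162276_i_at difference. Without that array the log2 differences were 1.24 for the double knockout, 0.85 for the Terc knockout and 1.13 for the Ku86 knockout labels, and without wild type replicate 2 they were 2.56, 2.18 and 2.46. Within the second scan day, which holds 1 wild type array and no spread for wild type, they were 1.25, 0.85 and 1.22. With scan day as a block the log2 differences were 1.29, 0.85 and 1.18, 0 of 8 members kept an unadjusted p under 0.05 in any of the 3 comparisons, and the 95% intervals of this probe set then included 0 (limma adjusted p = 0.713, 0.991 and 0.995). Wild type replicate 1 is alone on its scan day, so the block takes up that array and wild type then rests on replicate 2. The Terc knockout value of 0.85 is therefore the same as without that array. The block cannot tell scan day apart from that array. Wild type replicate 1 also had the lowest median signal of all arrays, and it was the lowest array for 26.8% of all tested probe sets and for 2 of the 8 members.

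Summed signals of supporting testis cells are given beside those of C1qb 162276_i_at. The sum over 13 Sertoli cell genes on 17 probe sets was between 5364 and 6423 on arrays labelled double knockout, between 4007 and 4365 on those labelled Terc knockout, between 3312 and 4740 on those labelled Ku86 knockout, and between 2903 and 2913 on wild type. That of 6 peritubular smooth muscle genes was between 1354 and 1625 on arrays labelled double knockout, between 793 and 1065 on those labelled Terc knockout, between 692 and 1077 on those labelled Ku86 knockout, and between 556 and 624 on wild type. Both sums, like C1qb 162276_i_at, were higher on all 6 arrays labelled knockout than on wild type. This was not particular to these cells. The sum of CSF1 signalling and lineage regulators was at most 523 on wild type and at least 535 on arrays labelled knockout. That of mast cell genes was at most 298 on wild type and at least 309 on arrays labelled knockout. Leydig and endothelial sums did not separate in this way. For 7 Leydig cell genes the sum was between 1171 and 1928 on arrays labelled double knockout, between 1086 and 1663 on those labelled Terc knockout, between 863 and 1221 on those labelled Ku86 knockout, and between 849 and 1125 on wild type. For 7 endothelial genes it was between 449 and 477 on arrays labelled double knockout, between 261 and 298 on those labelled Terc knockout, between 235 and 411 on those labelled Ku86 knockout, and between 262 and 268 on wild type. All these sums are on the deposited scaling only, where wild type replicate 1 had the lowest median signal of all arrays. How often sums of other gene lists separate in this way was not tested. The part of these cells in the C1qb values was not tested either.

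The design also crosses the genotypes, so each loss was averaged over the other genotype. For Terc loss (4 arrays labelled without Terc against 4 with it) limma called 0 of 8 members, against 0.0137% of all tested, with 1 member at an unadjusted p under 0.05, against 5.29%. C1qb 162276_i_at had a log2 difference of 0.81 ± 0.35 (SE, limma adjusted p = 0.928) in this average, and the 8 differences ran from -0.04 to 0.81. For Ku86 loss limma called 0 of 8 members, and 0% of all tested, with 1 member at an unadjusted p under 0.05, against 5.15%. C1qb 162276_i_at differed by 1.09 ± 0.35 (SE, limma adjusted p = 0.900), and the 8 differences ran from -0.59 to 1.09. No member separated the 4 arrays from the other 4 in either average, against 2.27% of all tested probe sets for Terc loss and 3.13% for Ku86 loss.

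The interaction asks whether the double knockout departed from the sum of the 2 single knockouts. Limma called 0 of 8 members, and 0% of all tested, with 0 members at an unadjusted p under 0.05, against 5.04%. C1qb 162276_i_at had an interaction of -1.41 ± 0.69 (SE, log2, limma adjusted p = 0.875). Its mean was 115 under the double knockout label, against 93.7 and 107 under the Terc and Ku86 knockout labels. In limma's F test over the 4 genotypes 0 of 8 members were called, and 0% of all tested, with 1 at an unadjusted p under 0.05 (C1qb 162276_i_at, adjusted p = 0.864), against 5.01%.

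The remaining 7 member probe sets were too dim to be tested with the rest, among them every probe set of Lyz2, Fcer1g and Tyrobp. Lyz2 encodes the lysozyme of macrophages and neutrophils. Its probe set 100611_at read 40.1 and 26.9 on arrays labelled double knockout, 46.4 and 15.2 on those labelled Terc knockout, 26.8 and 16.4 on those labelled Ku86 knockout, and 12.5 and 11.5 on wild type. All 6 arrays labelled knockout were above both wild type arrays, 1 of which was under the floor. Wild type was thus under or just above the floor, which bounds any difference from it. Of the 7282 tested probe sets, which leave this one out, 7.62% also had all 6 arrays labelled knockout above wild type. With values raised to the floor, in a fit with no filter over 12422 probe sets, the double knockout label differed by 1.44 ± 0.60 on the log2 scale (SE, limma adjusted p = 0.756), a size that depends on the floor. The other Lyz2 probe set stayed between 1.9 and 7.1, and the one shared with Lyz1, the lysozyme of Paneth cells, between 5.3 and 14.7. Neither had all 6 arrays labelled knockout above wild type.

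Fcer1g and Tyrobp encode small adaptors, FcRγ and DAP12, whose ITAM motifs pass on signals from Fc receptors and related surface receptors. Fcer1g signal on probe set 160692_at was 2.4 and 5.8 on arrays labelled double knockout, 5 and 8.5 on those labelled Terc knockout, 21.5 and 26.7 on those labelled Ku86 knockout, and 3.9 and 15.6 on wild type. The arrays labelled Ku86 knockout were the highest and 5 of the other 6 were at or under the floor, so the differences are bounded by it. With values raised to the floor, the log2 difference of the Ku86 knockout label from wild type was 0.82 ± 0.16 (SE, limma adjusted p = 0.739). Both arrays labelled double knockout and both labelled Terc knockout then equalled the floor, so they added no spread. The SE and p therefore depend on the floor, and no conclusion is drawn from them. That includes an unadjusted p under 0.05, which no other dim member had against wild type. The second Fcer1g probe set stayed between 2.5 and 12.8 and was not highest under the Ku86 knockout label.

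Tyrobp, on probe set 100397_at, read 11.2 and 19.9 on arrays labelled double knockout, 20.8 and 50.5 on those labelled Terc knockout, 11.7 and 39.2 on those labelled Ku86 knockout, and 29.7 and 11.4 on wild type. Each group overlapped wild type, and 1 array each of double knockout, Ku86 knockout and wild type was under the floor. The second Cd68 probe set, 162173_i_at, stayed between 1.3 and 17.3, with 7 of 8 arrays at or under the floor.

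**Figure D3:**
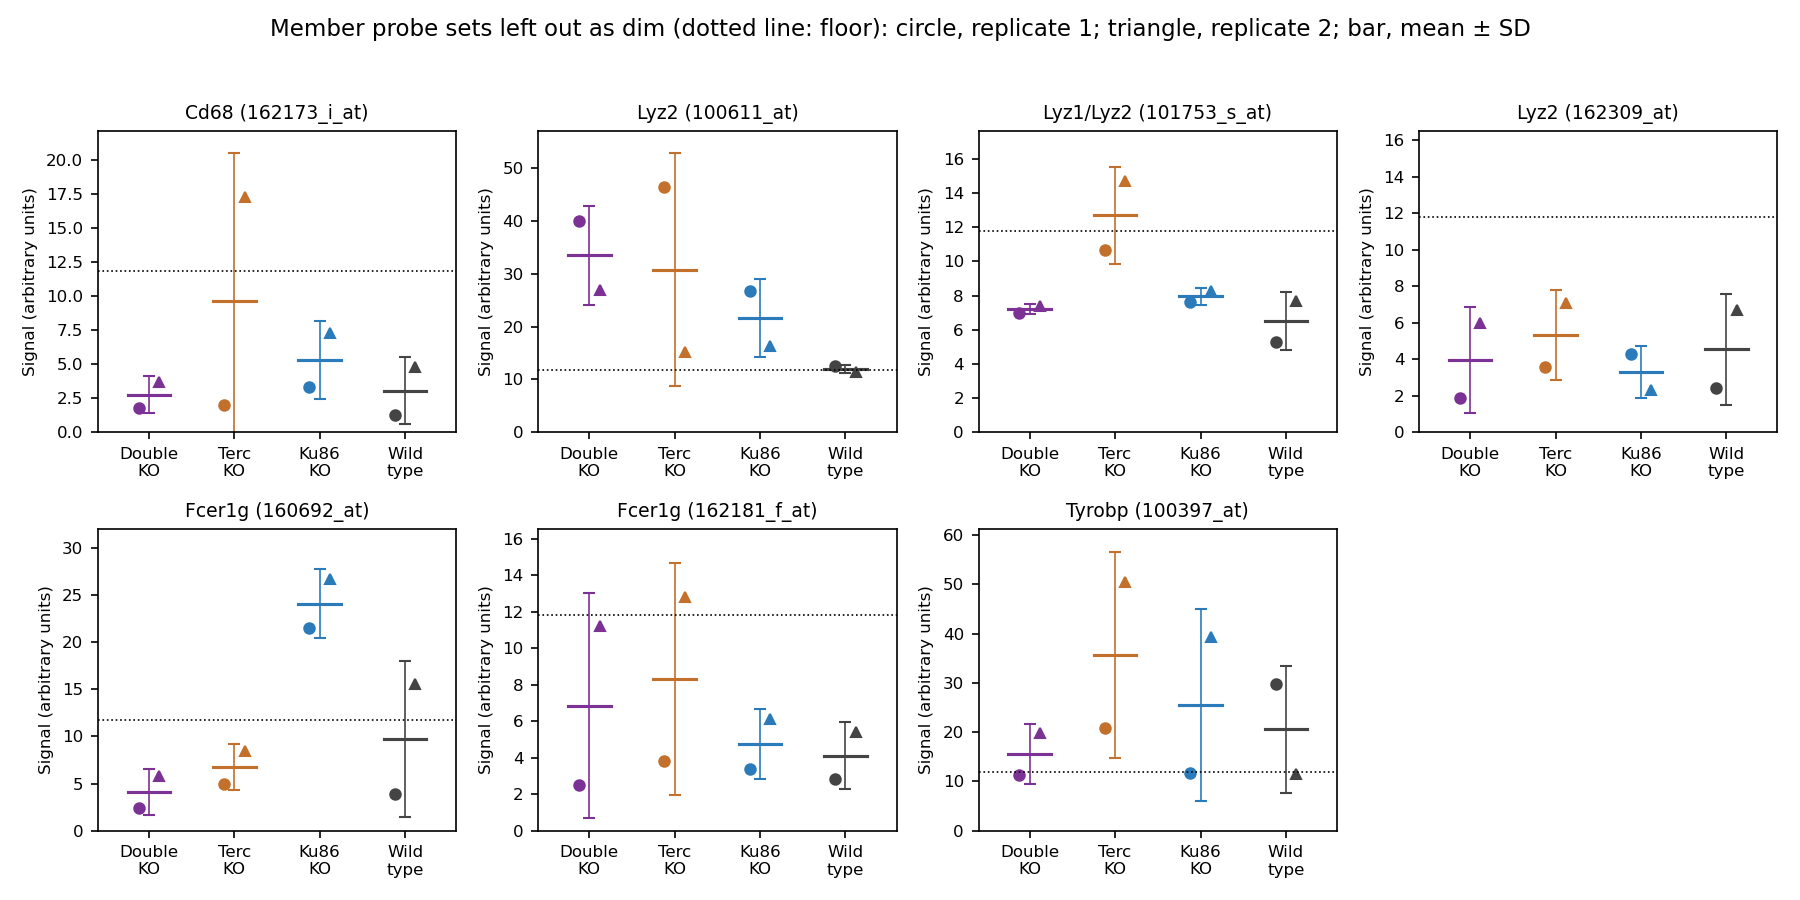
Signal of the 7 dim member probe sets on a linear axis from 0 (arbitrary units), with a circle for replicate 1, a triangle for replicate 2, a bar at the mean ± SD (n = 2, bars ending at 0 where they would pass it) and a dotted line at the floor of 11.8. Lyz2 100611_at lies above wild type (12.5 and 11.5) on all 6 arrays labelled knockout, and Fcer1g 160692_at is highest on the arrays labelled Ku86 knockout (21.5 and 26.7). The Lyz2 pattern was also that of 7.62% of the tested probe sets, which leave these dim ones out.

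The tested members did not move as a unit over the 8 arrays. Of 28 pairs of member probe sets, 17 had a Pearson r above 0, with a median of 0.114. The lowest was -0.53 for C1qa with C1qc and the highest was 0.66 for C1qa with C1qb 96020_at, both over 8 arrays that share genotypes and scan days. The mean of the members' centred log2 signals was highest on Terc knockout replicate 2 (0.26) and lowest on wild type replicate 1 (-0.44), while wild type replicate 2 lay at 0.11. Terc knockout replicate 2 was the highest array for 4 of 8 members, against 23.4% of all tested probe sets. Those 2 arrays also had the highest and the lowest median signal. Genes whose pattern over the 8 arrays was most like that mean were Rnf2 (r = 0.96), Nusap1 (0.94), Gata2 (0.94), Hs3st3a1 (0.94) and Vps54 (0.94). They were picked as the highest r among all tested probe sets with 1 symbol, so high values follow in part from the selection. Each of them, like the mean, was lowest on wild type replicate 1.

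Other genes of the same pathways were counted from lists, and limma called 0 of their probe sets in the 3 comparisons with wild type. All list medians below are on the deposited scaling and are to be read against the medians of all tested probe sets, which the other scalings move as given above. On that scaling 58.7%, 61.1% and 59.6% of all tested probe sets were above 0 for the double, Terc and Ku86 knockout labels, against 30.3%, 29.3% and 35.2% after median centring, a check of the lists added after the data were seen. CSF1 signalling and lineage regulators (5 tested probe sets) had median log2 differences of 0.75 for the double knockout, 0.74 for the Terc knockout and 0.58 for the Ku86 knockout label, with 0, 1 and 0 of 5 probe sets at an unadjusted p under 0.05, against 8.6%, 7.06% and 5.9% of all tested. After median centring the medians were 0.48, 0.41 and 0.35. Spi1, which encodes PU.1, read 70.1 and 79.7 on arrays labelled double knockout, 76.3 and 139.3 on those labelled Terc knockout, 37.8 and 69.9 on those labelled Ku86 knockout, and 26.4 and 54.4 on wild type. Its log2 difference was 0.98 ± 0.51 for the double knockout label and 1.44 ± 0.51 for the Terc knockout label (SE, limma adjusted p = 0.644 and 0.672). Csf1 itself, the receptor's ligand, read 47.7 and 39.3 on arrays labelled double knockout, 138 and 96.4 on those labelled Terc knockout, 92.9 and 158.9 on those labelled Ku86 knockout, and 71.8 and 72 on wild type.

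Other macrophage and monocyte surface and lysosome genes (13 tested probe sets) had medians of 0.32, 0.24 and 0.22 for the double, Terc and Ku86 knockout labels, with 10, 11 and 12 of 13 above 0. After median centring the medians were 0.056, -0.096 and -0.018, with 8, 4 and 6 above 0, so that the direction for the Terc and Ku86 knockout labels depended on the scaling. Within that list Lgals3, which encodes galectin-3, had the lowest p for the double knockout label, at 25.3 and 23.2 on those arrays and 54 and 50.9 on wild type, a log2 difference of -1.11 ± 0.52 (SE, limma adjusted p = 0.585). Summed over 24 genes, the list's signal was between 6126 and 7442 on arrays labelled double knockout, between 6115 and 7021 on those labelled Terc knockout, between 6416 and 7802 on those labelled Ku86 knockout, and between 5476 and 6575 on wild type. Aif1 and Lamp1 made up most of those sums, and Lamp1 is a lysosomal protein of nearly all cells.

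Complement components and inhibitors (6 tested) had medians of 0.160, 0.214 and 0.079 for the double, Terc and Ku86 knockout labels, which median centring turned to -0.106, -0.119 and -0.154. Cd55, which encodes an inhibitor of complement convertases, was 82.7 and 95.5 on arrays labelled double knockout, 89.8 and 73.5 on those labelled Terc knockout, 80.4 and 75.3 on those labelled Ku86 knockout, and 174.7 and 125.7 on wild type. No array labelled knockout reached the lower wild type array, but the share of all tested probe sets below wild type in this way was not counted. Its log2 differences were -0.74, -0.87 and -0.93 with adjusted p of 0.566, 0.672 and 0.802 (limma). Receptors and kinases that signal with Fcer1g or Tyrobp (4 tested) had medians of 0.143, 0.299 and 0.202, turned to -0.123, -0.034 and -0.031 by median centring. Among them Fgr, a Src family kinase, had the lowest p, with 0.32 ± 0.30 for the double knockout label (SE, limma adjusted p = 0.839).

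MHC class II genes and loading factors (5 tested), the partners of Cd74, had medians of 0.086, 0.021 and 0.360 for the double, Terc and Ku86 knockout labels, and of -0.181, -0.312 and 0.127 after median centring. H2-DMb1, a chain of the peptide exchange factor H2-DM, was 91.6 and 61 on arrays labelled double knockout, 46 and 62 on those labelled Terc knockout, 92.7 and 45.5 on those labelled Ku86 knockout, and 122.7 and 135.8 on wild type. Its log2 differences were -0.79, -1.27 and -0.99, with adjusted p of 0.660, 0.672 and 0.802 (limma). Of the macrophage cytokines and chemokines, 1 of 16 probe sets was bright enough to be tested, that of Ccl6, with -0.25 for the double knockout label.

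Genes of other leukocytes and of erythroid cells were few among the tested probe sets. Medians for the double, Terc and Ku86 knockout labels were -0.137, 0.065 and -0.021 for T cells (Cd4 alone), 0.244, 0.463 and 0.456 for B cells (4 tested), and -0.459, -0.076 and -0.379 for granulocytes (2 tested). They were 0.348, 0.688 and 0.309 for mast cells (2 tested), -0.147, 0.102 and 0.083 for dendritic cells (3 tested) and 0.020, 0.300 and 0.154 for erythroid genes (3 tested). B cell and dendritic cell genes are named here because those cells also express Cd74, and granulocytes because they share Lyz2 and Fcer1g. Cd3d, Cd3e and Cd3g, which encode CD3 chains of the T cell receptor complex, reached at most 27.7. Of the T cell probe sets other than that of Cd4, 0 passed the filter.

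Among the fixed cells of the testis, Sertoli genes (15 tested) had medians of 0.90, 0.56 and 0.50 for the double, Terc and Ku86 knockout labels, with 11, 3 and 0 of 15 probe sets higher at an unadjusted p under 0.05, against 8.6%, 7.06% and 5.9% of all tested in either direction. After median centring the medians were 0.64, 0.22 and 0.26. Peritubular genes (5 tested) had medians of 1.09, 0.64 and 0.44, Leydig cell genes (6 tested) 0.58, 0.55 and 0.078, and endothelial genes (3 tested) 0.48, -0.34 and 0.31. Spermatid genes (8 tested) had medians of -0.027, 0.027 and 0.008, and spermatocyte genes (4 tested) 0.057, -0.080 and -0.095. All 3 probe sets of epididymis genes were too dim to be tested. The macrophage members, at 0.088, 0.156 and -0.169, lay nearer to the medians of all probe sets than the Sertoli or peritubular genes did on the deposited scaling. This did not hold for the Ku86 knockout label after quantile normalization. There the members were at -0.379, Sertoli genes at 0.391 and peritubular genes at 0.265, beside 0.010 over all tested probe sets.

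**Figure D4:**
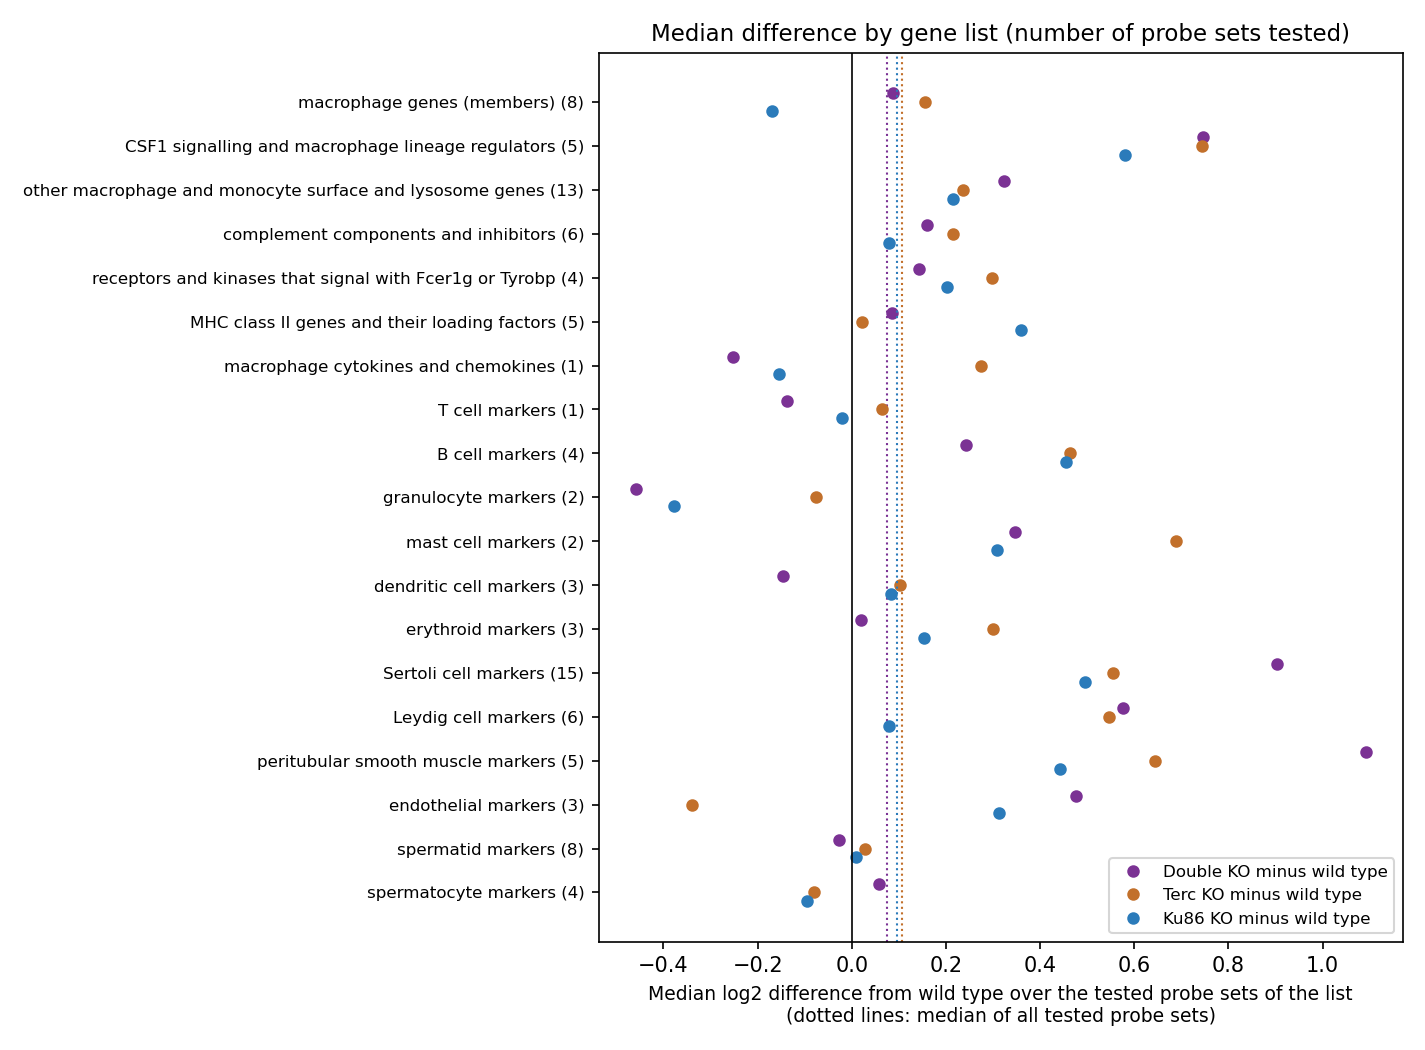
Median log2 difference from wild type (horizontal axis) over the tested probe sets of each gene list (rows, number tested in brackets) for the arrays labelled double knockout, Terc knockout and Ku86 knockout, with dotted lines at the medians of all tested probe sets. The 8 members lie at 0.088, 0.156 and -0.169, and Sertoli genes at 0.90, 0.56 and 0.50.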

How the data were processed

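Testis RNA of 4 genotypes was measured on 8 arrays. The authors deposited 1 intensity per probe set and array on a linear scale, already scaled array by array (trimmed means of 199.48 to 199.88), and the software and settings are not given in the sources used here. Intensities were kept as deposited. Before log2 was taken, values under the pooled 20th percentile (11.8) were raised to it. From the 12488 probe sets, 66 controls and 5140 with a mean log2 under that of the pooled 40th percentile (38.1) were left out. Genes were named through the platform's annotation: of the 12422 probe sets, 10833 have 1 symbol, 396 several and 1193 none.

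Limma 3.58.1 in R 4.3.3 (lmFit, eBayes with a trend) was fitted to all 8 arrays with 1 mean per genotype (4 residual degrees of freedom), two-sided, with Benjamini-Hochberg adjustment over all 7282 probe sets. It was tested on simulated data. The labels do not say whether the 2 arrays of a genotype came from separate mice, so p-values measure only the spread between these arrays, which may be technical. Members and lists were chosen with earlier results of these data known. The rule for named genes was every member, the probe set of lowest p for the double knockout label in each list, and the 5 genes most like the members' mean. Lists of other cell types are given by counts, medians or sums only. Csf1, Aif1, Lamp1, Cd14, Cx3cr1, Mpeg1, Laptm5, Cd52, Ptprc, Cd53, Adgre1, Itgam and the Cd3 chains were added after their values were seen.

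Alternatives were quantile normalization, median centring, other floors and filters, no variance trend, blocks for experiment number or scan day, each array left out, only the arrays compared and, added after the data were seen, scan day 2 alone. There were 0 unused value columns.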

Additional observations from a re-analysis of the deposited data

Results flagged for a closer look

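C1qb 162276_i_at on Ku86 knockout replicate 1 read 100, the lowest of the 4 arrays labelled without Ku86, while the other 3 read 114, 115.5 and 113.1. Its gap to the nearest of them exceeds Dixon's critical value for 4 samples, which chance passes in about 1 in 20 groups of replicates. These 4 arrays carry the double and the Ku86 knockout labels and come from different scan days. They are therefore not replicates of the same condition. The value lies well above both wild type arrays (19.4 and 48.7).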

How the results depend on the processing

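No member probe set was called under the 20 other settings of each comparison with wild type or the 19 of each other comparison, and the lowest adjusted p of any member was 0.149 (limma, without wild type replicate 2, C1qb 162276_i_at). The log2 difference of that probe set from wild type stayed above 0 in all settings that tested it, between 1.24 and 2.56 for the double knockout, 0.85 and 2.18 for the Terc knockout and 1.13 and 2.46 for the Ku86 knockout label. The filter at the 60th percentile left it out. Experiment numbers 1 and 2 recur in every genotype. Differences between replicates correlated by 0.013 to 0.25 between genotypes, not over 0.1 in every pair, so the number was not taken as a pairing. It runs in part with scan day and chip lot, since every array numbered 2 was scanned on the second day. With the replicate block limma called 0 members, and C1qb 162276_i_at had an adjusted p of 0.201 for the double knockout, 0.473 for the Terc knockout and 0.400 for the Ku86 knockout label, within a range of 0.149 to 1.00 over all settings.

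Of 519 values of single probe sets, 473 kept their direction and 46 changed sign, none of them called, and the cause was not tested. For the double knockout label, quantile normalization gave -0.153 for Cd68, -0.105 for C1qb 96020_at and -0.050 for C1qc. Median centring gave -0.164, -0.194 and -0.161 for the same probe sets. Scan day as a block gave -0.433 for Cd68, 0.219 for C1qa and -0.121 for C1qc, and scan day 2 alone gave -0.480 for Cd68, -0.012 for C1qb 96020_at, -0.206 for C1qc and -0.095 for Cd74. For the Terc knockout label, quantile normalization gave -0.142 for C1qb 96020_at, -0.041 for C1qc and -0.034 for Cd74. Median centring gave -0.260, -0.209 and -0.144 for these, and a members' median of -0.177. Scan day as a block and scan day 2 alone both gave -0.254 for Csf1r 161832_r_at, -0.020 for C1qb 96020_at and -0.207 for Cd74. For the Ku86 knockout label, the filter at the 60th percentile gave a members' median of 0.234, scan day as a block -0.074 for Cd74, and scan day 2 alone 0.152 for C1qa. The members' median interaction was 0.198 with median centring and 0.185 with scan day as a block.

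Leaving out each array in turn gave these ranges for the double knockout label: C1qa -0.103 to 0.041, C1qb 96020_at -0.020 to 0.165, C1qc -0.292 to 0.503, Cd68 -0.199 to 0.404, Cd74 -0.066 to 0.725 and Csf1r 161832_r_at -1.11 to 0.253. For the Terc knockout label they were C1qa -0.511 to 0.279, C1qb 96020_at -0.020 to 0.165, Cd74 -0.207 to 0.584, Csf1r 104354_at -0.401 to 0.218 and Csf1r 161832_r_at -0.254 to 1.11. For the Ku86 knockout label they were C1qa -0.966 to 0.224, Cd68 -0.489 to 0.072, Cd74 -0.161 to 0.629, Csf1r 161832_r_at -0.998 to 0.370 and the members' median -0.335 to 0.125. The members' median interaction ranged between -0.294 and 0.185. A setting that leaves 1 array in a genotype assumes that it varies like the others. Signals near background limit Lyz2, Fcer1g and Tyrobp.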
